A study of Mus musculus with 9 samples.

Results

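Conventional dendritic cells (DC) and conventional T cells, the 2 control populations of a spleen study, were compared across all genes. The comparison used 3 DC and 3 T cell libraries, chosen by their sort labels, out of 9 libraries in the series. The other 3 libraries, from a population that the submitters named TDC, took no part in it. All cells came from naive, untreated mice of 8 weeks of age, and all mice, the source of the T cells included, were homozygous Zbtb46-GFP animals, whose Zbtb46 locus drives a green fluorescent reporter. Spleens were pooled before sorting, from 5 mice for replicate 1 and from 6 mice for replicates 2 and 3 of each population. Sort gates are not given in the sources used, nor which animals went into which pool, so each p-value speaks of the variation among these pools alone. RNA near the 3′ end of transcripts was counted (Lexogen QuantSeq). The labels also name RPMI medium with 10% FBS as the medium that held the cells.

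Dendritic cells take up material from their surroundings, break it down in endosomes and lysosomes and load the resulting peptides onto MHC class II molecules for T cells to read. T cells recognise those peptides through the T cell receptor and circulate between lymphoid organs in a resting state. The development of DC depends on transcription factors such as PU.1 and IRF8, and that of T cells on factors such as TCF1, LEF1 and BCL11B.

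Library totals ran from 10986544 to 18071425 reads in T cells and from 14973484 to 25676640 reads in DC. A count of 0 in a whole group allows up to 3 reads, or 0.0626 CPM in T cells and 0.0577 CPM in DC, which covers counting error only. Levels are CPM, reads scaled to a common library size with TMM factors, and are listed in the order of replicates 1, 2 and 3. Adjusted p-values come from the quasi-likelihood test of edgeR after Benjamini-Hochberg adjustment over 13524 tested genes, a log2 change is the fitted log2 fold change of DC over T cells with its standard error (SE), and a gene was called at an adjusted p under 0.05. Where a group had no read, the fold is a lower bound set by 3 reads over that group.

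The labels matched the markers of each lineage. Cd74, the chaperone of MHC class II molecules, was at 35764, 38092 and 26431 CPM in DC and at 4.89, 24.1 and 7.04 CPM in T cells. Flt3, the receptor for the growth factor of DC, was at 657, 420.3 and 792 CPM against 1.10, 0.161 and 0 CPM, and Spi1, which encodes PU.1, had no read in T cells. Cd3e had no read in DC, and the T cell receptor gene Trac had 0.539 CPM in DC replicate 2 and no read in the other DC libraries. All 12 DC markers were called higher and all 12 T cell markers lower in DC, against 14.7% and 9.17% of all genes tested.

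Markers of other cells were also read. The 12 T cell markers summed to 27.1 to 30.9 CPM in DC libraries, nearly all of it Cd5 (21.9 to 28.4 CPM), and the 12 DC markers summed to 9.54 to 40.8 CPM in T cell libraries, highest in replicate 2. The 11 red pulp macrophage markers summed to 208 to 346 CPM in DC and 3.16 to 5.80 CPM in T cells, and 6 of the 8 tested were higher in DC. Adgre1 was at 114 to 236 CPM in DC, Hmox1 at 28.3 to 42.4 CPM, Vcam1 at 11.9 to 30.6 CPM, Spic at 11.6 to 23.5 CPM, C1qc at 3.54 to 7.51 CPM and C1qa at 2.77 to 4.91 CPM, and these 6 were the ones called. Mertk (0.683 CPM) and Cd5l (2.05 CPM) were read in DC replicate 1 alone. The 10 B cell markers summed to 236 to 330 CPM in DC and 16.6 to 37.2 CPM in T cells, and 2 of 5 tested were higher in DC. These were Ms4a1, at 202 to 253 CPM in DC, and Blk, at 6.31 to 12.4 CPM, while Cd79a reached 7.94 CPM and Pax5 0.470 CPM at most in DC. The 9 natural killer cell markers summed to 589 to 1496 CPM in T cells and 126 to 218 CPM in DC, with Ncr1 at 1.79 CPM or less in every library. Of 8 tested, 4 were lower and 2 higher in DC. The 8 monocyte markers summed to 880 to 1720 CPM in DC and 231 to 638 CPM in T cells, with 6 of 8 higher in DC. The 8 plasmacytoid DC markers summed to 218 to 255 CPM in DC and 198 to 238 CPM in T cells. These close sums hide differences between members, since 4 of 6 tested, Siglech among them, were higher in DC and 1 was lower. The 8 plasma cell markers summed to 694 to 957 CPM in DC and 934 to 1583 CPM in T cells, for the most part Ighm, which was called lower in DC. Of 5 tested plasma cell markers 2 were higher in DC, a count that ran from 0 to 2 with each library left out in turn. Stromal and endothelial markers summed to 33.9 to 82.6 CPM in DC and 59.9 to 124 CPM in T cells, and platelet markers to 16.01 to 28.4 CPM and 22.6 to 39.1 CPM. Neutrophil, erythroid and mast cell or basophil markers summed to 24.8 CPM or less in every library, the highest value being the erythroid sum of DC replicate 2. The part of these cells in the differences below was not tested, and in such bulk samples fewer cells of a type and less RNA per cell cannot be told apart.

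Of 13524 genes tested, 1983 (14.7%) were called higher and 1240 (9.17%) lower in DC than in T cells, 23.8% in all. The 2 groups did not overlap for 5682 of the 13524 tested genes, called or not. Genes named below by rank, over all genes or within a list, had to be free of overlap. For them the lack of overlap is a description and no further evidence. The differences were often absolute: 498 called genes had no read in any T cell library and 311 had none in any DC library. When libraries were scaled by their totals alone, the median of all genes shifted by -0.28 on the log2 scale and the calls became 1669 higher and 1748 lower, so higher calls made up 61.5% of calls under TMM and 48.8% under library size. Leaving out T replicate 2 left 782 genes lower in DC, leaving out DC replicate 2 gave 1888, and leaving out replicate 1 of both groups gave 871 higher and 414 lower.

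Among the 15 highest-ranked rises, which were ranked by fold among genes of at least 50 CPM, the lineage genes Spi1, Cd209a and H2-DMb1 stood beside genes of inflammation and lipid signalling. Il1b, the cytokine interleukin 1 beta, had 1172, 2648 and 583 CPM in DC and no read in T cells, at least 23451-fold higher. Ptgs2, the inducible cyclooxygenase that starts prostaglandin synthesis, had 444, 199.7 and 430.1 CPM in DC and no read in T cells, at least 5718-fold higher. Every DC library was above every T cell library for both genes, and the DC libraries differed from each other by more for Il1b, which was highest in replicate 2. The other rises included the inhibitory receptors Cd300a and Siglecg, the apolipoprotein family gene Apol7c, the receptor kinase Grk3, the small GTPase gene Rnd3, Rassf4 and Slamf8, each without a read in T cells and at least 5112-fold to at least 8168-fold higher. 

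The 15 largest falls were led by the machinery of the T cell receptor. Cd3g was at 1338, 2324 and 1477 CPM in T cells with no read in DC, at least 29672-fold lower in DC. Lat, the membrane scaffold that the receptor phosphorylates, was at 1137, 1672 and 1253 CPM in T cells and had 3 reads in all DC libraries together, 23998-fold from the summed reads, with a 95% counting interval of 8211 to 116370. The others included the costimulatory genes Cd28 and Cd40lg, the signalling genes Themis, Ubash3a, Trat1 and Sh2d1a, the calcium-dependent kinase Camk4, the folate receptor family gene Izumo1r and the less familiar Dapl1 and Tdrp. Dapl1 was at 209.6, 425 and 337 CPM in T cells and Tdrp at 132, 156 and 165 CPM, and neither had a read in DC.

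The listed transcription factors were called more often than genes at large. Of 252 listed genes 232 were tested, 64 were higher (27.6%) and 37 lower (15.9%) in DC, against 14.7% and 9.17% of all genes. Their median log2 fold change was 0.33 against 0.01 for all genes. The list holds known factors of both lineages, and all gene lists were chosen with earlier results of these data known. Shares of listed genes, here and below, are thus descriptions of the lists and not independent evidence. As a share of reads they took 3.99% to 4.64% of DC libraries and 2.73% to 3.14% of T cell libraries, with no overlap (exact permutation test, two-sided, p = 0.1, the smallest that 3 against 3 libraries allow). The 37 lower genes became 21 without T replicate 1, 21 without T replicate 2 and 19 without T replicate 3.

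**Figure D1:**
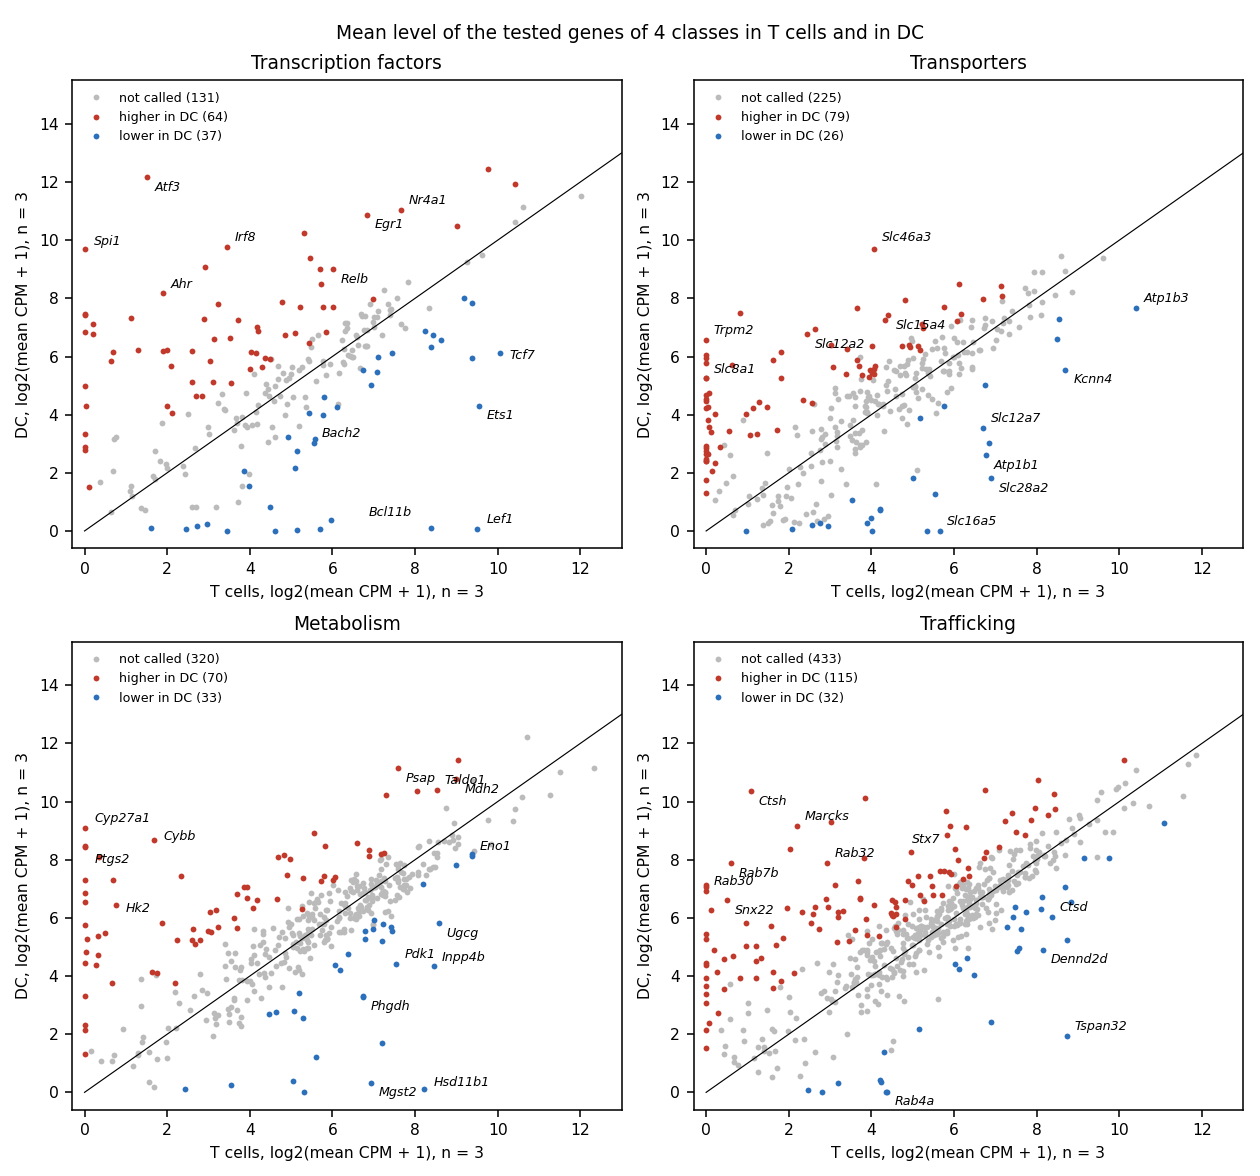
Mean level of each tested gene in T cells (x axis) and DC (y axis), as log2(mean CPM + 1) over 3 libraries a group, for 4 classes of genes, with the line of equal level and colours for genes called higher or lower in DC. Transcription factors have the largest called shares of the 4 classes, with 64 higher and 37 lower of 232, while the points of metabolic genes crowd along the line, with 320 of 423 not called.

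Factors that specify myeloid cells and DC were absent from T cell reads or low in T cells. Spi1 was at 765, 1172 and 574 CPM in DC, at least 13373-fold higher than in T cells, and its relative Spib was at 48.4, 10.7 and 32.1 CPM with no read in T cells. Irf8, which directs the development of type 1 DC, was at 882, 598 and 1116 CPM in DC and 6.07, 10.8 and 12.81 CPM in T cells (log2 change 6.45 ± 0.47 SE, adjusted p = 5.63e-05). Batf3, its partner in that lineage, was at 113, 294 and 108 CPM and had no T cell read. Each of these genes was above the T cell range in every DC library, and Spi1, Spib and Batf3 varied more than 2-fold among DC libraries.

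Several further factors had the same off-on pattern. Mycl, the MYC relative used by DC in place of MYC, was at 195, 76.8 and 259 CPM with no T cell read, at least 2823-fold higher. Bcl11a had 138, 110.0 and 89.9 CPM in DC and no T cell read, at least 1797-fold higher. Zeb2 (log2 change 6.79 ± 0.56 SE), Tcf4 (4.72 ± 0.57 SE), the homeobox gene Hhex (9.34 ± 0.93 SE) and the reporter's own gene Zbtb46 (5.69 ± 0.58 SE) also passed the test. Zbtb46 was at 51.7, 126 and 43.9 CPM in DC and 1.81, 1.29 and 1.203 CPM in T cells. Both copies of this locus carry the reporter in these mice, so its reads come from the altered locus. Whether they stand for an intact Zbtb46 transcript was not tested.

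Environmental and signal-driven factors were a second group. Ahr, the receptor for aromatic ligands from diet and microbes, was at 189, 499 and 173 CPM in DC and 3.63, 1.88 and 2.71 CPM in T cells (log2 change 6.71 ± 0.60 SE, adjusted p = 0.000124), highest in DC replicate 2. Hes1, a target of Notch signalling, was at 75.7, 285 and 50.5 CPM against 0.473, 0 and 0 CPM (log2 change 9.94 ± 1.28 SE, adjusted p = 0.000755). Of 13 NF-kB and NFAT genes tested, 6 were higher in DC (46.2%, against 14.7% of all genes). The count ran from 4 to 8 with each library left out in turn. Rel was at 432, 646 and 943 CPM in DC and 75.3, 30.3 and 23.6 CPM in T cells (log2 change 3.97 ± 0.55 SE, adjusted p = 0.00111), and Relb was at 596, 393 and 549 CPM against 61.4, 67.9 and 62.1 CPM (log2 change 3.01 ± 0.31 SE, adjusted p = 0.000213). The groups did not overlap for these 4 genes.

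Atf3, a stress-induced bZIP factor, was at 4188, 6120 and 3541 CPM in DC and 0.868, 4.62 and 0 CPM in T cells (log2 change 11.27 ± 1.42 SE, adjusted p = 0.000656). Egr1 was at 1802, 1801 and 2010 CPM against 113, 99.9 and 129 CPM (log2 change 4.04 ± 0.31 SE, adjusted p = 5.78e-05), and Nr4a1 was at 2568, 1286 and 2403 CPM against 243, 150.4 and 211 CPM (log2 change 3.37 ± 0.39 SE, adjusted p = 0.000449). The groups did not overlap for any of the 3 genes. Such genes can respond within minutes to handling. Of 20 tested immediate early genes, 15 were higher in DC (75%, against 14.7% of all genes). The listed immediate early genes took 3.23% to 3.80% of DC reads and 1.28% to 1.48% of T cell reads. The part of tissue handling in these levels was not tested.

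Among the transcription factor lists, that of HMG box, RUNX, T-box, GATA and FOX genes had the largest share lower in DC. Its RUNX genes were not among the lower ones, since Runx1 was not called and Runx2 and Runx3 were higher. Of 25 tested, 10 were lower in DC (40%) and 3 higher (12%), against 9.17% and 14.7% of all genes. The lower count was 10 with each library left out in turn. Tcf7, which encodes TCF1, was at 1126, 765 and 1309 CPM in T cells and 95.7, 37.3 and 73.0 CPM in DC (log2 change -3.96 ± 0.45 SE, adjusted p = 0.000383), so it was lower but still read in every DC library. Lef1, its closest relative, was at 663, 830.3 and 686 CPM in T cells and had 2 reads in DC, 19131-fold from the summed reads, with a 95% counting interval of 5296 to 157979. Bcl11b, a zinc finger factor from another list, was at 344, 282 and 367 CPM in T cells and 0.256, 0 and 0 CPM in DC (log2 change -11.47 ± 0.82 SE, adjusted p = 5.37e-05). For all 3 genes every T cell library lay above every DC library.

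Other factors of the T cell side mark subsets or states of T cells. Ets1 was at 753, 685 and 815 CPM in T cells and 13.4, 3.08 and 39.7 CPM in DC (log2 change -5.32 ± 0.84 SE, adjusted p = 0.00223), and spread more widely among DC libraries. Foxp3, the factor of regulatory T cells, was at 32.0, 28.999 and 41.7 CPM in T cells and had 1 read in DC. Eomes, found in memory and cytotoxic cells, was at 17.5, 17.5 and 34.8 CPM in T cells with no DC read, at least 403-fold lower in DC. The repressor Bach2, which holds lymphocytes in a resting state, was at 56.3, 49.9 and 32.3 CPM against 7.21, 7.08 and 7.27 CPM (log2 change -2.68 ± 0.40 SE, adjusted p = 0.00148). Stat4 (log2 change -1.96 ± 0.33 SE) and Klf7 (-1.93 ± 0.40 SE) were lower in DC by smaller steps.

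Since Spi1 stood among the largest rises, promoters were searched for the PU.1 motif GAGGAAGT on both strands, in windows of 250 bases before to 50 bases after the gene start (RefSeq, GRCm38.p6). Windows were found for 9362 of the tested genes. The motif was in 112 of 1949 windows of genes higher in DC (5.75%), 45 of 1048 windows of genes lower in DC (4.29%) and 263 of 8913 windows of genes that were not called (2.95%), against 3.2% of all 32851 windows. The AP-1 motif TGANTCA was in 7.54%, 5.92% and 4.27% of these windows in the same order and in 7.81% of all, and the RUNX motif TGTGGTT was in 3.54%, 6.01% and 3.69% and in 5.27% of all. The TCF and LEF motif CTTTGAA was in 3.95%, 4.87% and 3.52% and in 5.14% of all, and the ETS-IRF composite motif, which can overlap the PU.1 motif, was in 2.98%, 2.58% and 2.34% and in 2.72% of all. The TFEB motif TCACGTGA was in 1.08%, 1.62% and 2.08% and in 0.974% of all, and the NF-kB motif was in 29 of all windows, 2 of them of genes higher in DC. These shares are descriptions of letters in a window. The windows below show the PU.1 motif in capitals in 3 genes higher in DC, the lipid phosphatase Inpp5d, the NF-kB gene Rel and the survival gene Bcl2a1a, and the RUNX motif in capitals (read on either strand) in 3 genes lower in DC, the kinase Lck, the tetraspanin Tspan32 and the glutathione transferase Mgst2.
Inpp5d, chr1:87620266-87620311, plus strand: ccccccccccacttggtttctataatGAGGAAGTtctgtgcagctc
Rel, chr11:23771125-23771184, minus strand: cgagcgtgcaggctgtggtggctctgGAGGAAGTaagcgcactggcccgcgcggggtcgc
Bcl2a1a, chr9:88956790-88956849, plus strand: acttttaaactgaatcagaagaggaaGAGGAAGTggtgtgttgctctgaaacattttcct
Lck, chr4:129573667-129573725, minus strand: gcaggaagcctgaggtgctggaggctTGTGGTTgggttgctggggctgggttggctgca
Tspan32, chr7:143004978-143005036, plus strand: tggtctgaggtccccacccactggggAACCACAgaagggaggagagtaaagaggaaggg
Mgst2, chr3:51661027-51661085, plus strand: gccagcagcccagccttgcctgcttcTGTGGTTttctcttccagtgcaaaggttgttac

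The window of the copy Bcl2a1b at chr9:89199099-89199158 holds the same letters as that of Bcl2a1a, and reads may be split between these near-identical genes. Bcl2a1a was at 43.2, 108 and 32.9 CPM in DC and 0.0789, 0 and 0 CPM in T cells. Inpp5d was at 284, 179 and 592 CPM in DC and 54.1, 48.4 and 63.0 CPM in T cells (log2 change 2.67 ± 0.46 SE, adjusted p = 0.00346). Lck was at 2229, 2649 and 3051 CPM in T cells and 1.84, 1.77 and 0 CPM in DC (log2 change -11.08 ± 1.12 SE, adjusted p = 0.000214). Mgst2 was at 101.2, 145 and 118 CPM in T cells and 0.0854, 0.693 and 0 CPM in DC (log2 change -9.01 ± 0.92 SE, adjusted p = 0.000226).

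Related genes could differ between the populations in opposite directions. Of 77 pairs of related genes, each set up with a lymphoid and a myeloid member, 22 had the lymphoid member lower and the myeloid member higher in DC, 32 had 1 member called in the named direction, 7 had 1 member called against it, 4 had both members called in the same direction and 12 had neither called. Without replicate 1 of both groups the 22 pairs became 9. The pairs were drawn up from known lineage roles, so their direction is a description and not independent evidence.

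Several switched pairs belong to the signalling chain below antigen receptors and Fc receptors. Zap70, the kinase of the T cell receptor, was at 62.2, 66.1 and 99.6 CPM in T cells and 0.640, 0.462 and 0 CPM in DC (log2 change -7.61 ± 0.84 SE, adjusted p = 0.000347). Syk, its relative in myeloid and B cells, was at 225, 158 and 283 CPM in DC and 0, 0 and 0.662 CPM in T cells (log2 change 9.88 ± 1.04 SE, adjusted p = 0.00027). Thus 1 kinase was nearly silent where the other was read. Lck and Lyn, Lat and Lat2, Themis and Themis2, and Prkcq and Prkcd were called in the same opposite directions. So were Rasgrp1 and Rasgrp4, Sh2d1a and Sh2d1b1, and Dgka and Dgkg. Not all were such large differences, with smaller steps for Rasgrp1 (log2 change -2.65), Rasgrp4 (2.15) and Prkcd (2.92). Lyn was at 733, 413 and 499 CPM in DC and 1.26, 1.07 and 0 CPM in T cells (log2 change 9.47 ± 0.99 SE, adjusted p = 0.000253), and Themis2 was at 706, 287 and 614 CPM against 0.316, 0.591 and 2.65 CPM (log2 change 8.79 ± 0.89 SE, adjusted p = 0.000211).

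**Figure D2:**
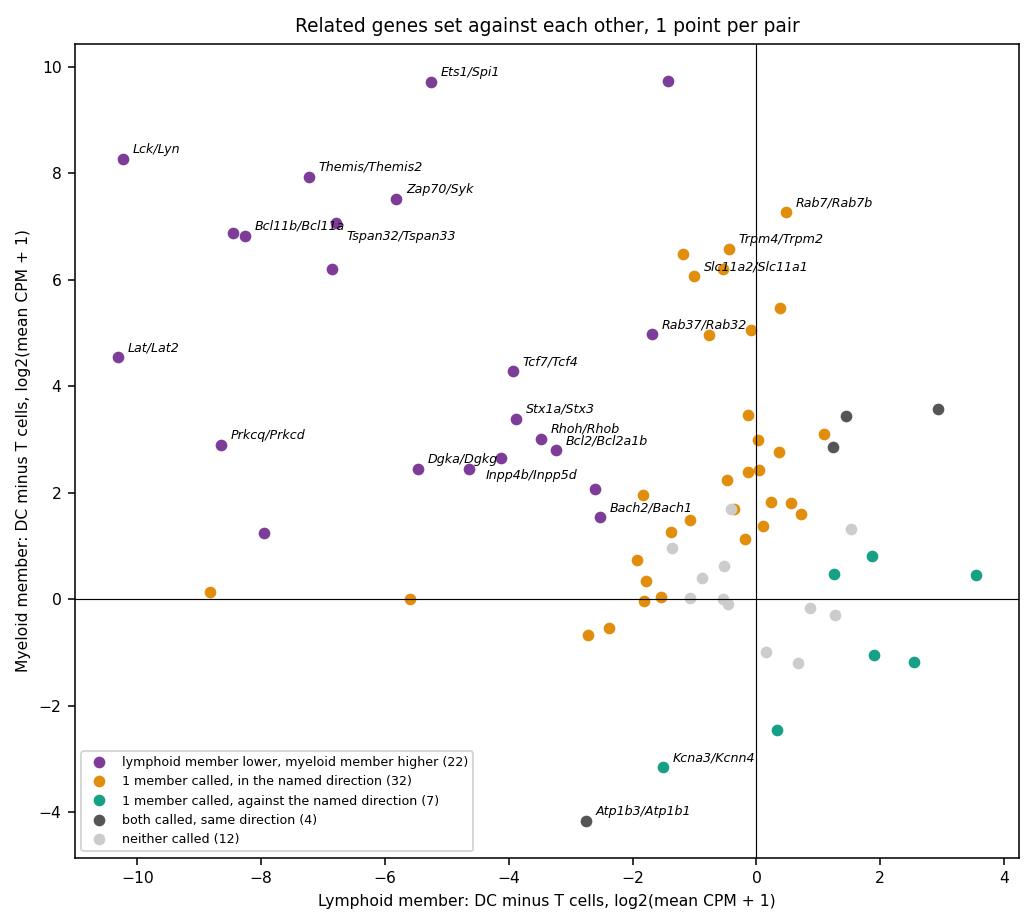
Difference between DC and T cells in log2(mean CPM + 1) for the lymphoid member (x axis) and the myeloid member (y axis) of 77 pairs of related genes, 1 point per pair, coloured by the calls. The 22 pairs called in opposite directions lie in the upper left, from Rab37 and Rab32 near the axis to Lck and Lyn at the far left, and the sodium pump pair Atp1b3 and Atp1b1 lies in the lower left.

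Some pairs did not switch. Both sodium pump subunits Atp1b3 and Atp1b1 were lower in DC, and both sorting nexins Snx9 and Snx10 were higher. Slc2a3, a high-affinity glucose carrier placed on the lymphoid side, was at 161, 75.5 and 178 CPM in DC and 36.4, 25.02 and 47.8 CPM in T cells (log2 change 1.92 ± 0.42 SE, adjusted p = 0.0107), a call that is lost without T replicate 1. Kcnn4, placed on the myeloid side, was at 415, 382 and 445 CPM in T cells and 59.5, 45.6 and 32.0 CPM in DC (log2 change -3.18 ± 0.34 SE, adjusted p = 0.000264). The lactate dehydrogenase pair moved on the lymphoid side alone, with Ldhb lower in DC and Ldha at 1215, 1490 and 1386 CPM in T cells and 882, 955 and 741 CPM in DC (adjusted p = 0.128).

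The listed transporter genes were called higher in DC more often than genes at large, although their share of reads overlapped between the groups. Of 700 listed genes 330 were tested, 79 were higher (23.9%) and 26 lower (7.88%), against 14.7% and 9.17% of all genes. Their median log2 fold change was 0.32. They took 1.61% to 1.86% of T cell reads and 1.43% to 2.06% of DC reads (exact permutation test, two-sided, p = 0.9). Among 197 solute carriers 45 were higher and 11 lower, and with each library left out in turn the higher count ran from 33 to 58 and the lower count fell to 7 without T replicate 1 and to 7 without T replicate 2. The 26 lower transporters became 13 without T replicate 1, and without replicate 1 of both groups 27 were higher.

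Several of the named carriers act in endosomes and lysosomes. Slc11a1, which moves iron and manganese across the phagosome membrane, was at 66.2, 56.5 and 75.3 CPM in DC with no read in T cells, at least 1054-fold higher. Slc46a3, a lysosomal carrier, was at 937, 825 and 727 CPM in DC and 24.1, 16.5 and 6.68 CPM in T cells (log2 change 5.72 ± 0.54 SE, adjusted p = 0.000149). Slc15a4, the endolysosomal carrier of histidine and peptides that endosomal Toll-like receptors need, was at 217, 110.4 and 180.1 CPM against 22.5, 20.8 and 17.3 CPM (log2 change 3.07 ± 0.37 SE, adjusted p = 0.000462). All DC libraries lay above all T cell libraries for the 3 genes, and Slc11a2, the relative of Slc11a1, was not called. Slc15a3, the closest relative of Slc15a4, was at 11.9, 11.8 and 15.2 CPM in DC and 0, 2.52 and 0 CPM in T cells and did not pass the test (adjusted p = 0.11), although the groups did not overlap. Tcirg1, a membrane subunit of the vacuolar proton pump, was at 257, 168 and 203 CPM against 38.0, 37.9 and 84.2 CPM (log2 change 1.97 ± 0.41 SE, adjusted p = 0.0079).

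Amino acid and peptide carriers had a median log2 fold change of 0.93. Of 26 tested, 7 were higher (26.9%) and 1 lower (3.85%), against 14.7% and 9.17% of all genes. The lower count became 3 without DC replicate 1. Slc7a7, the light chain that exports cationic amino acids, was at 65.7, 42.1 and 44.2 CPM in DC and 1.10, 0.537 and 0 CPM in T cells (log2 change 6.56 ± 0.97 SE, adjusted p = 0.00156). Slc7a11, the cystine and glutamate exchanger, was at 14.2, 54.8 and 8.17 CPM in DC and had 2 reads in T cells, and DC replicate 2 held the highest value. Slc6a12, a betaine carrier, was at 35.9, 39.3 and 85.8 CPM with no T cell read. The only lower member, Slc6a19, a carrier of neutral amino acids known from gut and kidney, was at 54.2, 27.2 and 37.5 CPM in T cells with no read in DC, at least 686-fold lower in DC. Slc7a5, the leucine carrier that T cells raise on activation, was at 9.62, 6.61 and 6.80 CPM in T cells and 23.2, 10.0 and 44.6 CPM in DC and was not called (adjusted p = 0.0654).

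Ion transport differed in both directions. Slc8a1, the sodium and calcium exchanger, was at 39.2, 27.1 and 44.5 CPM in DC with no T cell read, at least 590.2-fold higher. Slc12a2, which brings chloride in, was at 182, 54.9 and 88.5 CPM in DC and 4.26, 3.97 and 5.05 CPM in T cells (log2 change 4.61 ± 0.53 SE, adjusted p = 0.000393), while Slc12a7, which carries potassium and chloride out, was at 12.98, 3.00 and 15.9 CPM against 105, 86.0 and 121 CPM (log2 change -3.28 ± 0.59 SE, adjusted p = 0.00395). The opposite directions of these relatives held in every library. Trpm2, a calcium channel gated by oxidant signals, was at 84.9, 40.9 and 158 CPM in DC with no T cell read, at least 1511-fold higher, and the calcium and sodium channel genes Cacna1e and Scn3a had reads in all DC libraries and none in T cells. Of 51 tested channel genes 17 were higher (33.3%) and 7 lower (13.7%), against 14.7% and 9.17% of all genes. These became 11 higher without T replicate 2 and 2 lower without T replicate 1.

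T cells held more of the sodium pump's beta subunits and of a channel that sets the membrane potential. Atp1b3 was at 1497, 1441 and 1134 CPM in T cells and 205, 215 and 184 CPM in DC (log2 change -2.75 ± 0.29 SE, adjusted p = 0.000264). Atp1b1 was at 137, 91.4 and 96.3 CPM against 7.77, 6.08 and 1.42 CPM (log2 change -4.40 ± 0.62 SE, adjusted p = 0.00121). Kcnn4, the calcium-activated potassium channel that sustains calcium entry in T cells, was lower in DC as given above. Slc16a5, of the monocarboxylate carrier family, was at 54.7, 38.9 and 53.8 CPM in T cells with no DC read, at least 852-fold lower in DC. Slc28a2, a concentrative nucleoside carrier, was at 142, 58.4 and 154 CPM in T cells and 5.08, 2.46 and 0 CPM in DC (log2 change -5.52 ± 1.14 SE, adjusted p = 0.00779).

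**Figure D3:**
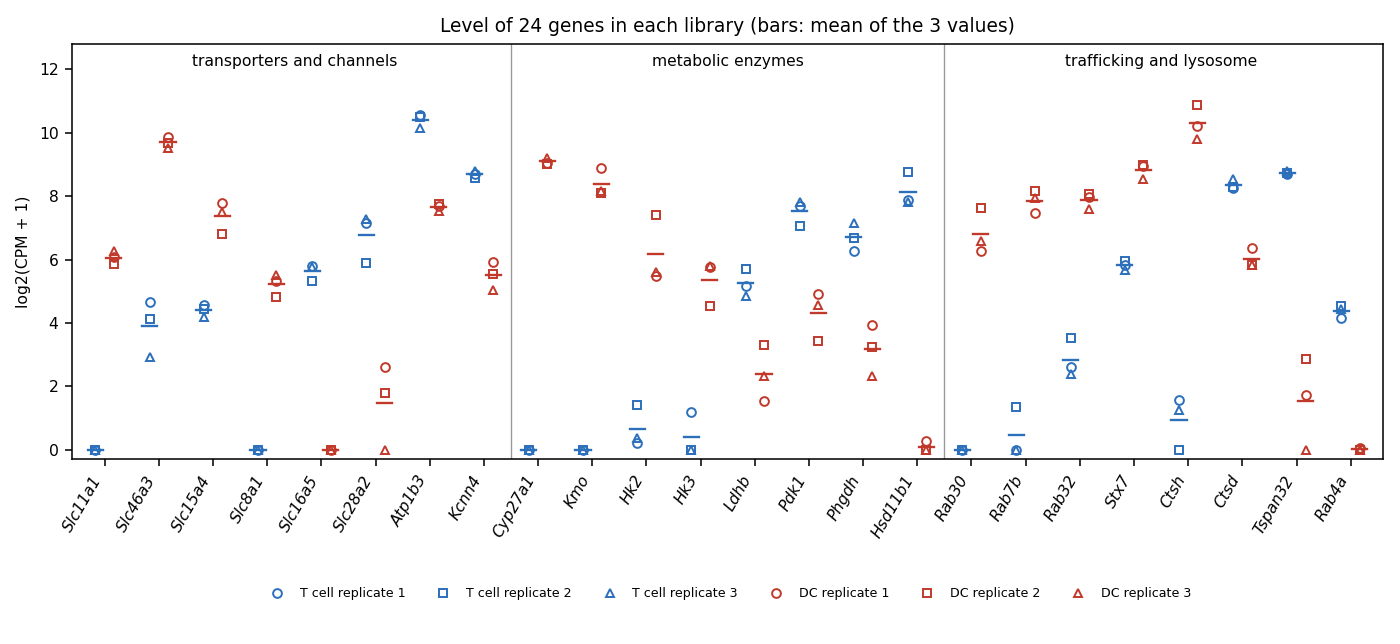
Level of 24 genes in each of the 6 libraries as log2(CPM + 1), with T cells in blue, DC in red, a symbol for each replicate and a bar at the mean of the 3 values. The 2 groups do not overlap for any of the 24 genes, which was a condition of choice for genes named by rank. Slc28a2 and Tspan32 in DC and Hk2 in both groups have wide spreads.

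**Figure D4:**
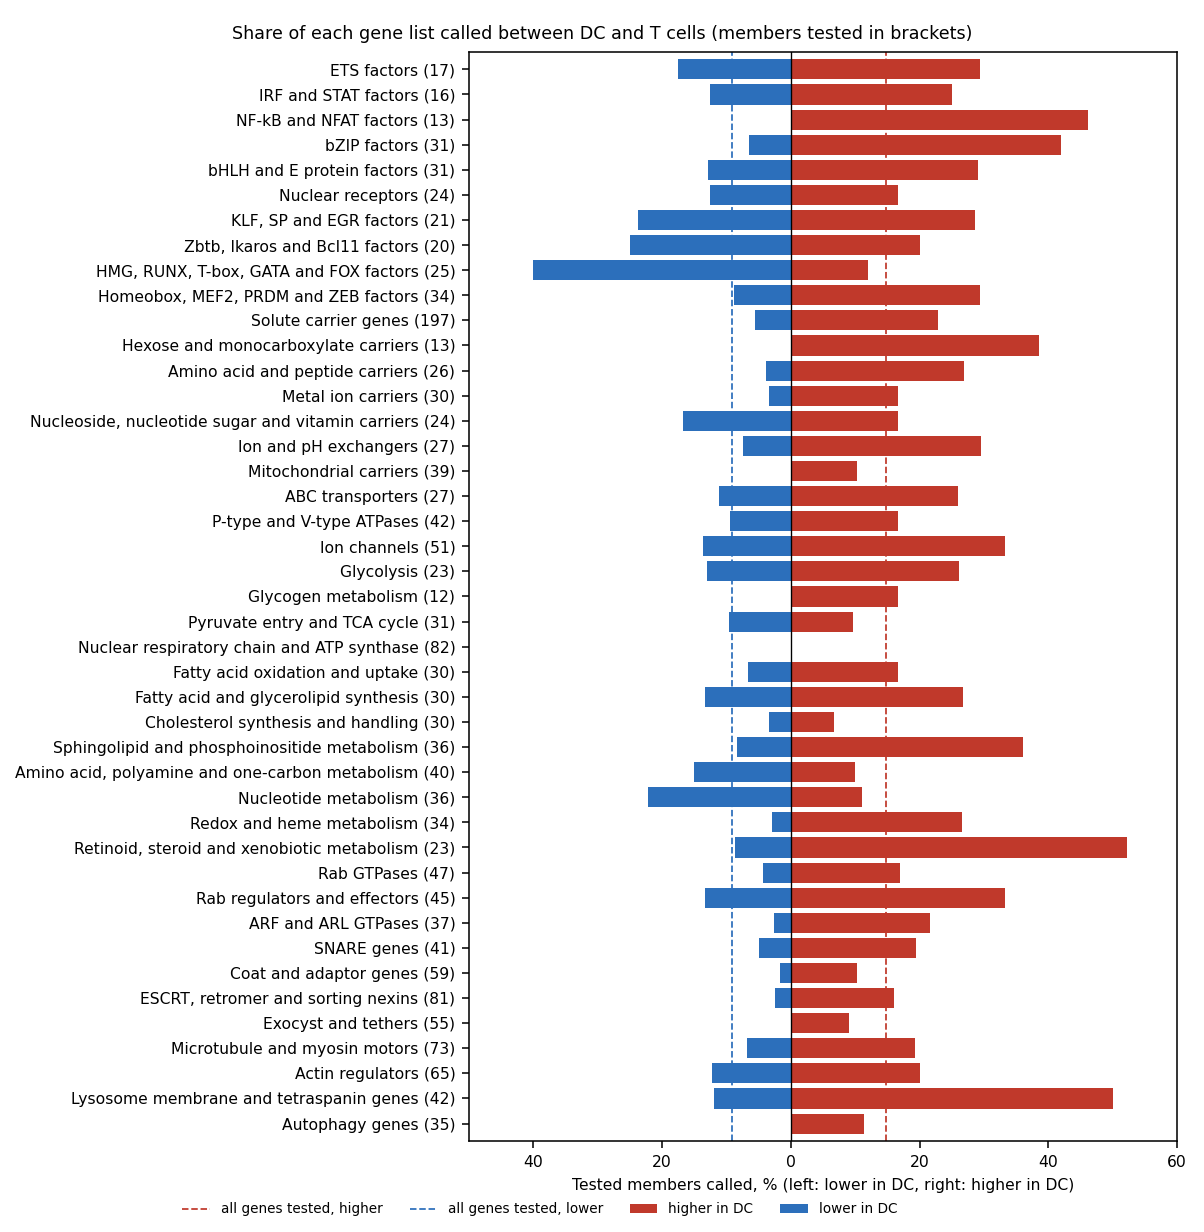
Share of tested members called higher (right, red) or lower (left, blue) in DC for each list of the 4 classes (transcription factors, transporters, metabolism and trafficking) with at least 10 tested members, with the number tested in brackets and dashed lines at 14.7% and 9.17% for all genes tested. Among these lists, retinoid, steroid and xenobiotic genes and lysosome and tetraspanin genes reach farthest to the right, HMG, RUNX, T-box, GATA and FOX factors farthest to the left, and the nuclear respiratory chain list has no bar.

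Metabolic genes as a class were near the background of all genes. Of 466 listed genes 423 were tested, 70 were higher (16.5%) and 33 lower (7.80%) in DC, with a median log2 fold change of 0.05. The 33 lower genes became 51 with library size scaling, 18 without T replicate 2, 20 without T replicate 3 and 67 without DC replicate 2. The class took 5.62% to 6.69% of T cell reads and 5.26% to 6.53% of DC reads (exact permutation test, two-sided, p = 0.3).

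Retinoid, steroid, eicosanoid and xenobiotic enzymes were called most often among the metabolic lists, with a median log2 fold change of 2.86. Of 23 tested, 12 were higher (52.2%) and 2 lower (8.7%), against 14.7% and 9.17% of all genes. Cyp27a1, the mitochondrial sterol hydroxylase, was at 531, 519 and 591 CPM in DC with no read in T cells, at least 8735-fold higher, and its DC libraries were close together. Aldh1a2, which makes retinoic acid, was at 21.3, 8.93 and 32.2 CPM with no T cell read, at least 332-fold higher. In the other direction Hsd11b1, which regenerates active glucocorticoid, was at 232, 429 and 222 CPM in T cells and 0.213, 0 and 0 CPM in DC (log2 change -11.54 ± 0.85 SE, adjusted p = 5.78e-05), and the epoxide hydrolase Ephx1 was at 144, 149.8 and 143 CPM against 2.43, 4.23 and 0 CPM (log2 change -6.04 ± 1.06 SE, adjusted p = 0.00371).

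Amino acid, polyamine and one-carbon enzymes were near the background, with a median log2 fold change of 0.04. Of 40 tested, 4 were higher (10%) and 6 lower (15%) in DC, against 14.7% and 9.17% of all genes. The lower count became 2 without T replicate 2 or T replicate 3 and 3 without DC replicate 1, and the higher count became 8 without DC replicate 2. Kmo, the kynurenine hydroxylase, was at 477, 270.3 and 288 CPM in DC and Kynu, the next hydrolase of the route, at 104, 112 and 57.8 CPM, and neither had a read in T cells. Ido1, the first enzyme of the route in type 1 DC, was at 1.15, 3.00 and 7.85 CPM in DC with no T cell read (adjusted p = 0.0102). The serine enzyme Phgdh was at 76.4, 101.3 and 141 CPM in T cells and 14.4, 8.47 and 4.05 CPM in DC (log2 change -3.56 ± 0.53 SE, adjusted p = 0.00156), and the mitochondrial serine hydroxymethyltransferase Shmt2 was at 122, 146 and 171 CPM against 45.8, 26.9 and 34.9 CPM (log2 change -2.02 ± 0.33 SE, adjusted p = 0.00259). Both serine enzymes were above the DC range in every T cell library.

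Nucleotide enzymes were lower in DC in 8 of 36 tested genes (22.2%) and higher in 4 (11.1%), against 9.17% and 14.7% of all genes. The lower count became 5 without T replicate 1. The higher count became 2 without T replicate 2, T replicate 3 or DC replicate 1. Impdh1, which commits purines to guanine nucleotides, was at 106, 76.1 and 138 CPM in T cells and 9.05, 5.31 and 11.45 CPM in DC (log2 change -3.63 ± 0.43 SE, adjusted p = 0.000506). Extracellular nucleotide enzymes split between the populations. Entpd1, which breaks down ATP outside the cell, was at 79.7, 50.8 and 35.4 CPM in DC and 3.00, 3.33 and 1.68 CPM in T cells (log2 change 4.37 ± 0.51 SE, adjusted p = 0.000446). Nt5e, which makes adenosine in the next step, was at 39.7, 25.1 and 50.7 CPM in T cells with no read in DC, at least 667-fold lower in DC.

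Glycolytic genes differed by isoform. Of 23 tested, 6 were higher (26.1%) and 3 lower (13%) in DC, against 14.7% and 9.17% of all genes. The lower count became 1 without T replicate 2, T replicate 3 or DC replicate 1. Hk2 was at 43.4, 169 and 47.9 CPM in DC and 0.158, 1.66 and 0.301 CPM in T cells (log2 change 6.86 ± 0.99 SE, adjusted p = 0.00138), and Hk3 was at 53.5, 22.2 and 54.9 CPM against 1.26, 0 and 0 CPM (log2 change 6.80 ± 1.36 SE, adjusted p = 0.00681). Hk1 was at 55.5, 16.7 and 61.2 CPM in DC and 76.0, 50.9 and 102 CPM in T cells, and the groups overlapped (adjusted p = 0.331). Ldhb, the heart-type lactate dehydrogenase subunit, was at 35.1, 51.2 and 27.97 CPM in T cells and 1.92, 8.77 and 4.05 CPM in DC (log2 change -2.96 ± 0.62 SE, adjusted p = 0.00835). The glycolytic list as a whole took 0.427% to 0.519% of T cell reads and 0.293% to 0.320% of DC reads (exact permutation test, two-sided, p = 0.1, the smallest possible). The glucose carrier Slc2a1 was at 70.7, 52.3 and 46.0 CPM in T cells and 42.7, 23.7 and 13.8 CPM in DC and was not called (adjusted p = 0.135).

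Genes of pyruvate entry and the citrate cycle were higher in DC in 3 of 31 tested (9.68%) and lower in 3 (9.68%). The first share was below the 14.7% of all genes and the second near their 9.17%. The lower count became 4 without DC replicate 2 and 1 without any other single library. Pdk1, the kinase that closes the pyruvate dehydrogenase gate, was at 205, 131 and 223 CPM in T cells and 29.3, 9.78 and 22.6 CPM in DC (log2 change -3.18 ± 0.47 SE, adjusted p = 0.00156). The cytosolic isocitrate dehydrogenase Idh1 was at 50.2, 26.9 and 65.7 CPM in DC and 8.83, 4.08 and 2.47 CPM in T cells (log2 change 3.22 ± 0.60 SE, adjusted p = 0.00491), and fumarase, Fh1, was at 184, 189.7 and 145 CPM against 51.9, 62.1 and 50.5 CPM (log2 change 1.65 ± 0.29 SE, adjusted p = 0.00354). Among 82 nuclear genes of the respiratory chain and ATP synthase edgeR called 0 in either direction. At an unadjusted p under 0.05, 4 were lower and 0 higher, DESeq2 called 4 lower and limma-voom 3, and the median log2 fold change was -0.32. Without DC replicate 2, 24 of these genes were called lower in DC.

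Among lipid enzymes, sphingolipid and phosphoinositide genes were higher in 13 of 36 tested (36.1%) and lower in 3 (8.33%), against 14.7% and 9.17% of all genes. Psap, the precursor of lysosomal sphingolipid activators, was at 2840, 896 and 3049 CPM in DC and 221, 138 and 216 CPM in T cells (log2 change 3.56 ± 0.52 SE, adjusted p = 0.00138), lowest in DC replicate 2. Inpp4b was at 460.4, 296 and 294 CPM in T cells and 21.3, 13.7 and 22.5 CPM in DC (log2 change -4.19 ± 0.38 SE, adjusted p = 0.000119), and Ugcg, which makes glucosylceramide, was at 486, 332 and 324 CPM against 66.3, 31.3 and 67.4 CPM (log2 change -2.79 ± 0.40 SE, adjusted p = 0.00126). Lpcat2, which remodels membrane lipids and makes platelet-activating factor, was at 110.0, 132 and 104 CPM in DC with no T cell read, at least 1845-fold higher. The fatty acid receptor Cd36 was at 191, 121 and 157 CPM in DC with no T cell read. Red pulp macrophages also use Cd36, and the summed markers of these cells were given above.

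Redox and heme genes were higher in DC in 9 of 34 tested (26.5%) and lower in 1 (2.94%), against 14.7% and 9.17% of all genes. The higher count became 5 without T replicate 1, and the lower count became 4 without DC replicate 2. Glycogen genes were higher in 2 of 12 (16.7%), near the share of all genes, with 1 without T replicate 1 or T replicate 2 and 5 without DC replicate 2. Cholesterol genes were higher in 2 of 30 (6.67%), below that share, with 6 without DC replicate 2 and 1 without any other single library. Cybb, the catalytic subunit of the phagocyte oxidase, was at 589, 219.7 and 418 CPM in DC and 4.58, 0.107 and 1.92 CPM in T cells (log2 change 7.57 ± 1.08 SE, adjusted p = 0.00125). Pygl, the glycogen phosphorylase of liver type, was at 66.2, 31.02 and 61.1 CPM in DC with no T cell read, at least 843-fold higher. Taldo1, of the pentose phosphate pathway, was at 1071, 2001 and 987 CPM in DC and 272, 437 and 398 CPM in T cells (log2 change 1.87 ± 0.38 SE, adjusted p = 0.00735). Soat1, which stores cholesterol as ester, was at 162, 77.0 and 161 CPM against 19.0, 15.52 and 8.18 CPM (log2 change 3.23 ± 0.47 SE, adjusted p = 0.00139).

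Trafficking genes were called higher in DC in 115 of 580 tested genes (19.8%) and lower in 32 (5.52%), from 645 listed, with a median log2 fold change of 0.32. Their share of reads did not separate the groups (9.77% to 11.7% in T cells and 11.2% to 12.6% in DC, exact permutation test, two-sided, p = 0.5). Without replicate 1 of both groups the counts became 47 and 12. Coats and adaptors (6 of 59), exocyst and tethers (5 of 55) and autophagy genes (4 of 35) had shares below the 14.7% of all genes that were higher in DC, while lysosome membrane and tetraspanin genes (21 of 42) and Rab regulators (15 of 45) had shares above it. Without DC replicate 2 the coat count became 16 and the tether count 11, both then above the share of all genes in that fit (2414 of 14144), while leaving out T replicate 1, T replicate 2 or DC replicate 1 gave 3 tethers and 2 autophagy genes. These shares were not tested against each other.

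Rab GTPases, the switches that give a membrane compartment its identity, were higher in 8 of 47 tested (17%) and lower in 2 (4.26%), the first near and the second below the 14.7% and 9.17% of all genes. Rab7b, a late endosomal Rab that acts on Toll-like receptors, was at 175, 283 and 243 CPM in DC and 0, 1.56 and 0 CPM in T cells (log2 change 8.69 ± 1.22 SE, adjusted p = 0.00116). Rab32, a Rab of lysosome-related organelles, was at 249.8, 269.7 and 194 CPM against 5.05, 10.4 and 4.27 CPM (log2 change 5.17 ± 0.46 SE, adjusted p = 0.000122), and its relative Rab38 was at 15.2, 13.9 and 14.02 CPM with no T cell read. Rab43, which is linked to cross-presentation by type 1 DC, was at 39.997, 88.7 and 38.7 CPM in DC and 5.29, 2.31 and 6.86 CPM in T cells (log2 change 3.53 ± 0.57 SE, adjusted p = 0.00253). Rab30, of the Golgi, was at 75.7, 196 and 94.2 CPM with no T cell read, at least 1948-fold higher.

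Rab4a and Rab37 were the lower members. Rab4a, a Rab of fast recycling, was at 16.6, 22.4 and 20.5 CPM in T cells and had 1 read in DC, 1051-fold from the summed reads, with a 95% counting interval of 188 to 41558. Rab37 was at 71.9, 75.9 and 88.2 CPM in T cells and 25.7, 21.9 and 23.7 CPM in DC (log2 change -1.73 ± 0.30 SE, adjusted p = 0.00354). Among regulators, Tbc1d9 was at 156, 81.2 and 178 CPM in DC with no T cell read, at least 2210-fold higher, and Dennd2d was at 317, 223 and 308 CPM in T cells and 23.1, 28.9 and 34.9 CPM in DC (log2 change -3.29 ± 0.33 SE, adjusted p = 0.000197). Sytl2, which links Rab27 vesicles to the plasma membrane, was at 16.9, 12.08 and 28.9 CPM in T cells with no DC read.

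Fusion and sorting genes followed. Stx7, the SNARE of late endosomes, was at 492, 503 and 371 CPM in DC and 55.6, 61.3 and 50.3 CPM in T cells (log2 change 3.03 ± 0.30 SE, adjusted p = 0.000184). Stx3, a plasma membrane syntaxin, was at 29.5, 24.1 and 44.97 CPM against 3.47, 0.698 and 2.53 CPM (log2 change 3.89 ± 0.67 SE, adjusted p = 0.00335). The sorting nexin Snx22 was at 116, 83.8 and 92.1 CPM against 0.631, 0.269 and 0.361 CPM (log2 change 7.87 ± 0.49 SE, adjusted p = 4.61e-05). Vps37b, of the ESCRT-I complex, went the other way, at 318, 107 and 119.6 CPM in T cells and 33.8, 22.0 and 27.9 CPM in DC (log2 change -2.70 ± 0.49 SE, adjusted p = 0.0041), and was highest in T replicate 1.

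Lysosome and tetraspanin genes took 0.780% to 0.865% of T cell reads and 1.24% to 1.54% of DC reads (exact permutation test, two-sided, p = 0.1, the smallest possible). Ctsh, a cysteine protease, was at 1182, 1858 and 891 CPM in DC and 1.97, 0 and 1.38 CPM in T cells (log2 change 10.23 ± 1.15 SE, adjusted p = 0.000372). Ctsd, the aspartic protease of most lysosomes, was at 306, 312 and 368 CPM in T cells and 82.2, 56.1 and 55.7 CPM in DC (log2 change -2.35 ± 0.31 SE, adjusted p = 0.000775), so the 2 proteases differed in opposite directions in every library. The tetraspanins Tspan33 and Tspan32 did the same. Tspan33 was at 116, 98.1 and 187 CPM in DC with no T cell read, and Tspan32 was at 416, 421 and 438 CPM in T cells and 2.35, 6.23 and 0 CPM in DC (log2 change -7.23 ± 1.18 SE, adjusted p = 0.00261). Of the autophagy genes, Gabarapl1, an ATG8 family protein, was at 59.0, 94.8 and 86.9 CPM in DC and 3.31, 3.28 and 2.05 CPM in T cells (log2 change 4.80 ± 0.42 SE, adjusted p = 0.0001), and Uvrag was at 529, 431 and 698 CPM against 88.3, 65.2 and 78.4 CPM (log2 change 2.84 ± 0.33 SE, adjusted p = 0.000372).

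Genes that shape the actin cortex included both large rises and large falls. Marcks, which binds actin and membrane lipid, was at 667, 395 and 659.6 CPM in DC and 3.00, 3.71 and 4.15 CPM in T cells (log2 change 7.30 ± 0.42 SE, adjusted p = 4.34e-05). Fscn1, the actin bundler of DC extensions, was at 37.1, 16.5 and 74.2 CPM with no T cell read, at least 680.4-fold higher. Rhoh, a small G protein without GTPase activity that T cell receptor signalling needs, was at 305, 473 and 494 CPM in T cells and 40.1, 51.3 and 19.6 CPM in DC (log2 change -3.52 ± 0.44 SE, adjusted p = 0.000648).

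DC libraries differed among themselves more than T cell libraries did. The median SD of log2(CPM + 1) over 3 libraries was 0.539 in DC (8617 genes with a mean of at least 10 CPM) and 0.341 in T cells (8037 genes), and 967 genes (11.2%) in DC against 103 (1.28%) in T cells had an SD above 1. The biological coefficient of variation, edgeR's measure of spread beyond counting, was 0.484 in DC and 0.350 in T cells. Across genes, which are no replicates of each other, Spearman correlations ran from 0.957 to 0.960 within T cells, from 0.875 to 0.941 within DC and from 0.636 to 0.715 between the groups. The difference in spread was not tested, since each group gave 1 estimate.

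**Figure D5:**
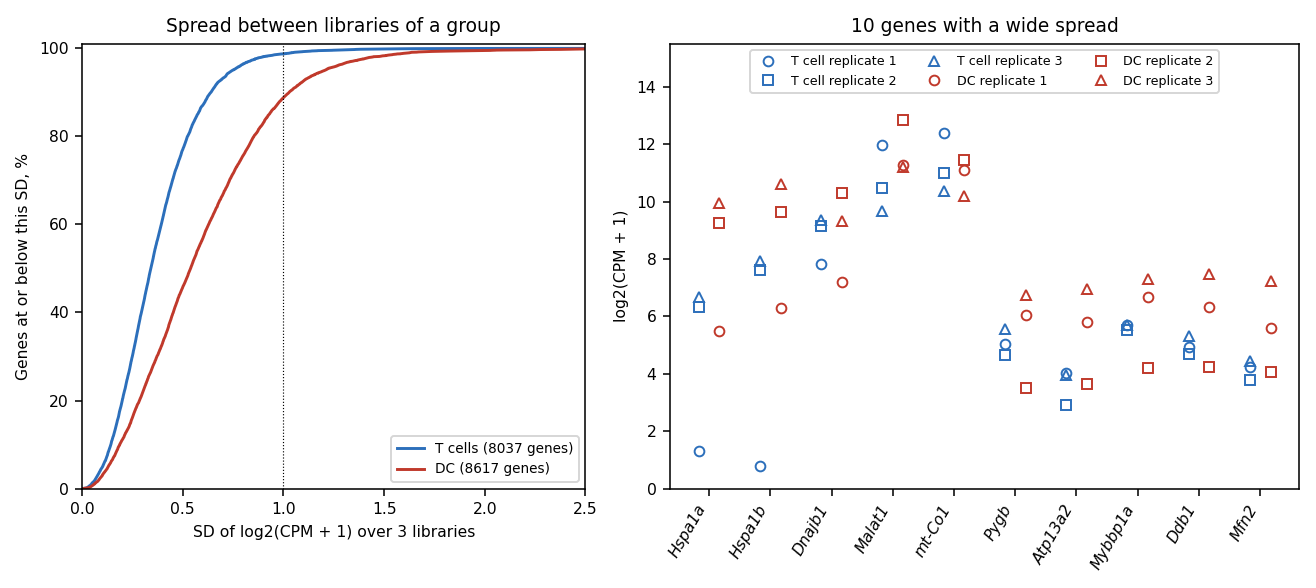
Left, share of genes (y axis, %) at or below a given SD of log2(CPM + 1) over the 3 libraries of a group (x axis), for genes with a mean of at least 10 CPM, with a dotted line at 1. Right, log2(CPM + 1) of 10 genes with a wide spread in each library: the DC curve lies to the right of the T cell curve, Hspa1a and Hspa1b are lowest in replicate 1 of each group, and among DC libraries Pygb to Mfn2 are lowest in replicate 2 and highest in replicate 3.

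The wide spread in DC came with replicates 2 and 3. DC replicate 2 lay more than 4-fold above the group's other libraries for 45 genes and more than 4-fold below for 223, DC replicate 3 for 48 and 170, and DC replicate 1 for 15 and 16. In T cells no library exceeded 20 genes in 1 direction. The 10 genes with the largest SD in DC included Pygb at 65.7, 10.2 and 107 CPM, Atp13a2 at 54.3, 11.4 and 122.999 CPM, Ddb1 at 79.4, 18.01 and 176 CPM, Mybbp1a at 102, 17.5 and 157 CPM and Mfn2 at 47.3, 15.6 and 148 CPM. All of these were lowest in DC replicate 2 and highest in DC replicate 3, and none was called between the groups.

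Heat shock genes led the spread in both populations. Hspa1b was at 0.710, 196 and 246 CPM in T cells and 77.2, 793 and 1580 CPM in DC, and Hspa1a was at 1.499, 78.9 and 100.3 CPM and 43.7, 609 and 989.8 CPM. These are near-identical copies whose reads may be split. Replicate 1, the pool of 5 mice, was lowest in both populations, and neither gene was called (adjusted p = 0.289 for Hspa1b and adjusted p = 0.133 for Hspa1a). In T cells Malat1 was at 3998, 1431 and 819 CPM and the mitochondrial transcript mt-Co1 at 5414, 2025 and 1311 CPM, both highest in replicate 1.

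Read classes moved with single libraries as well. Cytosolic ribosomal protein genes took 3.70% to 4.66% of T cell reads and 1.14% to 2.55% of DC reads, highest among DC in replicate 2. Their median log2 fold change was -0.91, and 3 of 82 tested were called lower and 1 higher by edgeR, while DESeq2 and limma-voom each called 17 lower and 26 were lower at an unadjusted p under 0.05. Without DC replicate 2, edgeR called 74 lower and 0 higher, and without any other single library it called 0 or 1 lower. The 10 most abundant genes took 18.4% of the reads of DC replicate 2, 13.5% and 11.1% of those of DC replicates 1 and 3, and 7.41% to 8.92% of those of T cell libraries.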

How the data were processed

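RNA of sorted cells was counted by stranded QuantSeq 3′ sequencing. Per the submitters' processing notes the reads passed FastQC, MultiQC, Trimmomatic, STAR and featureCounts, and the build named there is hg38, although the organism is mouse. The sources used here give no annotation, strand setting or versions, so overlapping and antisense genes may share reads. The authors deposited raw counts per gene symbol, and these counts were used as deposited. Because a 3′ read marks a transcript and not its length, levels were not divided by gene length. Apart from sums and shares of gene lists, levels of different genes were not tested against each other.

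Counts were analysed with edgeR 4.0.16 in R 4.3.3, using TMM factors, filterByExpr (minimum count 10, minimum total 15) and a robust quasi-likelihood fit of 6 libraries with 4 residual degrees of freedom. Genes were called at a Benjamini-Hochberg adjusted p under 0.05. DESeq2 1.42.0, limma 3.58.1 (voom), other scalings and filters, a test against a log2 fold change of 1, all 9 libraries in 1 fit and leaving out libraries were the alternatives. No column of the table was left unused for want of a label. Among 3 against 3 libraries no exact permutation p can fall below 0.1. Of these steps only the edgeR fit was also run on simulated counts with known changes, in fewer genes than were called here.

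The comparison, the gene lists and the pairs were chosen with earlier results of these data known. Named genes were, over all genes, the 15 largest called rises and falls whose groups did not overlap and whose higher group reached 50 CPM. In each list up to 3 rises and 3 falls of at least 10 CPM, again without overlap, were added. Preset marker and reference genes were added too, as were pairs called in opposite directions. In each group the 10 genes of at least 50 CPM with the largest SD were also added. Some of the named genes are not reported here. Replicate numbers were not used to pair libraries, and replicates differed from each other by 62.3 to 250 times the counting noise (chi-square per degree of freedom), so none was counted as a repeat of another.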

Additional observations from a re-analysis of the deposited data

How the results depend on the processing

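No gene was called in opposite directions by the main test and any of the 20 alternatives for the whole comparison. Of 326 named genes called, 325 kept the call under DESeq2 size factors, 305 under library size, 326 with DESeq2's Wald test, 323 with limma-voom and 259 when tested against a log2 fold change of 1. Leaving out 1 library kept 261 to 319, and leaving out replicate 1 of both groups kept 193. The exception among genes not called was Sdc1, at a log2 fold change of 0.19, which became -7.02 without DC replicate 3 and -6.66 without replicate 3 of both groups, and became 0.81 without DC replicate 2. Its DC reads all lay in replicate 3.

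All-gene counts ran from 871 to 2414 higher and from 414 to 1888 lower over the 9 fits that left out libraries. Over the same fits the class counts, higher and then lower in DC, ran from 38 to 72 and from 12 to 37 for transcription factors, from 27 to 103 and from 13 to 32 for transporters, from 37 to 93 and from 11 to 67 for metabolic genes, and from 47 to 159 and from 12 to 47 for trafficking genes. Switched pairs ran from 9 to 23. Tested against a log2 fold change of 1, 21 transcription factors and 18 metabolic genes were lower and 52 transporters higher, and with library size scaling 51 metabolic genes were lower. DESeq2's Wald test called 2412 higher and 1653 lower, limma-voom 2155 and 1572, and a fit without a filter 2354 and 1256.

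With the replicate number as a block, 2028 genes were higher and 1432 lower, of which 1852 and 1130 were also called in the main fit. Deviations of same-numbered libraries correlated at 0.065, 0.376 and 0.161, and T replicate 1 correlated better with DC replicate 3 (0.073). Libraries of different numbers correlated at -0.245 to 0.128. All 3 same-numbered values were positive, 1 of them under 0.1. The labels state no model, so the libraries were not treated as pairs, which does not show that they are unpaired. The submitters' library names share a prefix within each replicate number, but whether a number marks shared animals is not stated in the labels. The median SD ran from 0.309 to 0.345 in T cells and from 0.482 to 0.541 in DC under other minimum levels and offsets. At this depth a gene at 0 in a group can lie anywhere below 0.0626 CPM in T cells or 0.0577 CPM in DC.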

Other observations

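Genes of cell death and survival differed in both directions. Of 30 tested, 13 were higher (43.3%) and 4 lower (13.3%) in DC, against 14.7% and 9.17% of all genes. Without T replicate 1 the counts were 6 and 2, and without T replicate 2 they were 8 and 2. Pmaip1, which encodes the BH3 protein NOXA, was at 4744, 3405 and 2477 CPM in DC and 22.4, 27.7 and 19.7 CPM in T cells (log2 change 7.25 ± 0.44 SE, adjusted p = 4.60e-05), so all DC libraries lay far above the T cell range. Bcl2, which protects resting lymphocytes, was at 455, 339 and 258 CPM in T cells and 38.6, 45.1 and 24.7 CPM in DC (log2 change -3.28 ± 0.38 SE, adjusted p = 0.00042). Its relative Bcl2a1d was at 96.7, 233 and 64.7 CPM in DC and 3.39, 8.11 and 1.68 CPM in T cells (log2 change 4.89 ± 0.75 SE, adjusted p = 0.0018), and its reads may be split with the near-identical Bcl2a1a and Bcl2a1b.

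Cell cycle genes were higher in DC in 8 of 30 tested (26.7%, against 14.7% of all genes) by edgeR's quasi-likelihood test and in 13 by DESeq2 and by limma-voom, with 5 higher by edgeR without T replicate 1 and 4 without DC replicate 1. Bub1, a kinase of the mitotic checkpoint, was at 28.6, 11.01 and 45.9 CPM in DC and 1.499, 2.47 and 3.85 CPM in T cells, and its partner Bub1b was at 38.2, 15.3 and 27.7 CPM against 1.499, 5.32 and 2.29 CPM, with DC replicate 2 lowest among DC for both. Interferon-stimulated genes were near the background of 14.7% higher and 9.17% lower, with 5 of 31 tested higher (2 without T replicate 3) and 2 lower, which became 5 without DC replicate 2. Mx1 was at 75.2, 57.3 and 105 CPM in DC and 1.34, 4.03 and 11.7 CPM in T cells (log2 change 3.79 ± 0.73 SE, adjusted p = 0.00586), whereas the immunity-related GTPase Igtp was at 247, 342 and 269.8 CPM in T cells and 38.1, 37.6 and 23.5 CPM in DC (log2 change -3.11 ± 0.34 SE, adjusted p = 0.000302). Mitochondrial ribosomal protein genes were lower in 4 of 76 tested (5.26%, against 9.17% of all genes), in 20 without DC replicate 2 and in 0 to 2 without any other single library. DESeq2 called 8 of them lower and limma-voom 7.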
